A study of Homo sapiens with 2 samples.

Results

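The immunoglobulin heavy chain segments are the V, D, J and constant region genes of the IGH locus on chromosome 14. They were chosen by their GENCODE 44 gene type, a symbol that begins with IGH and their position, leaving out IGHM, the constant gene of the mu chain. The rule found 90 genes in GENCODE 44, of which 82 were listed in the files among 57773 genes. These 82 members were 41 V segments, 27 D segments, 6 J segments and 8 constant genes. The other 8, all V segments, had no entry under their present gene IDs and are not analysed here (IGHV4-4, IGHV7-4-1, IGHV3-64D, IGHV5-10-1, IGHV3-30, IGHV1-69-2, IGHV1-69D and IGHV2-70).

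RNA was sequenced from 2 established human lines of acute lymphoblastic leukemia of B-cell precursors (BCP-ALL), and REH and 697 gave 1 library each. REH carries the ETV6/RUNX1 fusion and lacks its second ETV6 allele, whereas 697 does not have the fusion. Both lines were grown untreated in the same serum-supplemented medium, and each is a single established line from a repository. Reads assigned to genes numbered 45188375 in REH and 41097497 in 697. With 1 library per line there is no replicate, so no test between the lines was possible and every ratio compares these libraries only.

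A heavy chain is encoded by 1 V, 1 D and 1 J segment that a developing B cell joins at the DNA level, after which splicing links the joined exon to a constant gene. The D to J step comes first and V is joined to it next, and each joining by deletion removes the DNA that lay between the chosen segments. On chromosome 14 the V segments lie on one side, followed by the D segments, the J segments and then the constant genes, which begin with IGHM and IGHD. V segments are also transcribed without being joined, as germline transcripts, in early B-lineage cells. A clone of leukemic B-cell precursors usually shares its joined segments, and in such cells the locus can differ between the chromosome copies.

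The J segments are shown first because the lines differed most plainly in which of them carried reads. The sequences are those of GENCODE 44, read 5′ to 3′ on the strand of the gene, and capitals mark TGGGG followed by any 4 bases and GG, the stretch around the conserved tryptophan and glycine codons, searched on the strand of the gene only and found in all 6.
IGHJ1: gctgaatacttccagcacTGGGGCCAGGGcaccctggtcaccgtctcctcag
IGHJ2: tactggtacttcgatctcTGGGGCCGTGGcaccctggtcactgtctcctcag
IGHJ3: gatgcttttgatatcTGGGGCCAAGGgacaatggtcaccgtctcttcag
IGHJ4: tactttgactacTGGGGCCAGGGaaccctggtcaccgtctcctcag
IGHJ5: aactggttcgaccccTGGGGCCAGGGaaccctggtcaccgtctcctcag
IGHJ6: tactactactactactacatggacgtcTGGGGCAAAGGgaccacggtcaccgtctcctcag

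The V segments with the most reads are shown by the last 100 bases of their GENCODE 44 transcript, the end that is joined to a D segment. Capitals mark TATTACTGT, the codons of the conserved tyrosine pair and of the second cysteine, after which the variable joint begins. This motif or TACTACTGT was found on the strand of the gene in the last 60 bases of 39 of the 41 V segments (95.1%).
IGHV3-15: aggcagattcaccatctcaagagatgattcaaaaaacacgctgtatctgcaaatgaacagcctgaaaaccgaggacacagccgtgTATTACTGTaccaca
IGHV3-43: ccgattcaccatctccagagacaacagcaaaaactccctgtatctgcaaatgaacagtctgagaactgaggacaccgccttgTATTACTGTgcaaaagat
IGHV4-39: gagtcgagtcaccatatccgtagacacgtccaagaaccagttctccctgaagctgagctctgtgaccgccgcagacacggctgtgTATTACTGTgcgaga
IGHV2-26: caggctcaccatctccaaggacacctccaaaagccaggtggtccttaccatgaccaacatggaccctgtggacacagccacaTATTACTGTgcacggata
IGHV4-34: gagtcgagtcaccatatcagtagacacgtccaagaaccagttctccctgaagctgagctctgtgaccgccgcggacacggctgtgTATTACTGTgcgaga
IGHV4-59: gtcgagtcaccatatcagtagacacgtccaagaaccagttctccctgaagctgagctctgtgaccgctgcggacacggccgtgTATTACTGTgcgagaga

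The heavy chain members took more of the 697 library than of the REH library. Together they had 3605 reads in REH and 20970 in 697, which is 71.7 and 568 CPM (read counts relative to the scaled library totals). At least 10 reads, the number taken here as carrying reads, were found for 14 members in REH (17.1%) and 22 in 697 (26.8%), against 31.1% and 28.3% of all genes in the files. No read was counted for 52 members in REH and for 52 in 697, and 44 of these were at 0 in both. In bulk RNA, fewer cells with a transcript and less of it per cell cannot be told apart.

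The comparison took the 27 of the 82 members that reached 10 reads in REH, in 697 or in both. A log2 ratio of REH over 697 of at least 2 in size was taken as higher in a line. By this measure 16 members were higher in 697, beside 8.15% of the 19145 genes compared, and 6 were higher in REH, beside 12.5% of those genes. The remaining 5 had smaller ratios. Many members entered the comparison only through the line in which they were high, so these counts describe the list and are not evidence about it.

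In REH, IGHV3-15 was the leading V segment. It lies at 106153624 to 106154163 on chromosome 14 (GRCh38, minus strand). It had 740 reads in REH and 0 in 697, and these were 49.7% of all reads on V segments in REH (95% Wilson interval 47.1% to 52.2%). With the reads on V pseudogenes in the total, of which 730 were on IGHV5-78, this share was 31.1%. Against 3 reads, the smallest number taken as detectable, its level was at least 181-fold higher in REH. Per kb of exon, IGHV3-15 reached 33.7 CPM.

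Next in REH were IGHV3-43 with 231 reads and IGHV4-39 with 223. IGHV3-43 (106470264 to 106470800) had 0 reads in 697 and was at least 56.6-fold higher in REH. IGHV4-39 (106421711 to 106422218) was carried by both lines, with 21 reads in 697, and was 7.64-fold higher in REH (log2 ratio 2.93, counting interval 2.32 to 3.68). Per kb of exon the levels of IGHV3-43 and IGHV4-39 in REH were close, at 10.6 and 10.4 CPM, both below that of IGHV3-15.

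The remaining V segments that carried reads in REH were IGHV4-28 (64 reads), IGHV4-34 (40), IGHV8-51-1 (40), IGHV5-51 (37), IGHV1-18 (21), IGHV1-46 (20), IGHV4-59 (19) and IGHV7-81 (13). IGHV1-58 had 9 reads, just below the minimum. Of these, IGHV1-18 and IGHV1-46 had 0 reads in 697 and were at least 5.15-fold and 4.90-fold higher in REH. Both bounds rest on 20 or 21 reads.

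In 697, the leading V segment was IGHV2-26, at 106301396 to 106301862. It had 8265 reads in 697 against 1 in REH, or 224 and 0.0199 CPM. The log2 ratio was -12.87, and its counting interval of -18.76 to -10.98 is wide because REH had 1 read. IGHV2-26 made up 77.4% of the V segment reads in 697 (76.6% to 78.2%). Per kb of exon it reached 587 CPM, which was above the level of every other V segment in either library.

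IGHV4-34 was second in 697. It lies at 106373663 to 106374145 and had 1470 reads in 697 and 40 in REH, so that it carried reads in both lines but was 49.4-fold higher in 697 (log2 ratio -5.63, -6.14 to -5.19). IGHV2-26 and IGHV4-34 together left 946 reads, 8.86% of the V segment total in 697, for the other V segments. In REH the part left by the leading pair was larger, with 519 reads or 34.8%.

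IGHV4-59 and IGHV1-69 followed in 697. IGHV4-59 (106627249 to 106627825) had 358 reads in 697 and 19 in REH, a 25.0-fold difference (log2 ratio -4.64, -5.43 to -4.02). IGHV1-69 (106714684 to 106715181) had 189 reads in 697 and 1 in REH, with a log2 ratio of -7.43 (-13.32 to -5.51).

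The other V segments higher in 697 had few reads. IGHV1-58 had 48 reads in 697 and 9 in REH, and IGHV3-72 had 43 and 2. The log2 ratio was -2.80 for IGHV1-58 (-4.07 to -1.82) and -4.57 for IGHV3-72 (-7.96 to -2.93). IGHV3-33 (35 reads), IGHV4-31 (26) and IGHV2-70D (18) had 0 reads in REH, and were at least 15.9-fold, 11.8-fold and 8.16-fold higher in 697. IGHV3-74 (14 and 3 reads) and IGHV3-53 (13 and 2) were at the edge of what could be compared, and for IGHV3-74 the log2 ratio was -2.49 with an interval of -5.11 to -0.83.

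**Figure D1:**
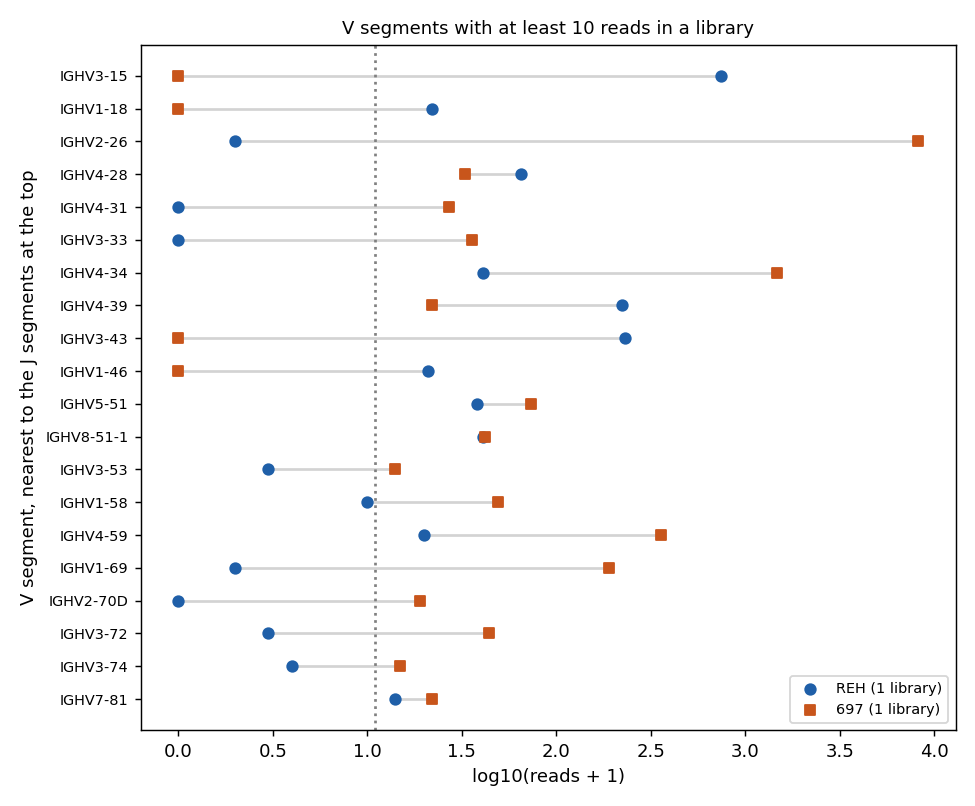
The 20 V segments with at least 10 reads in a library, in locus order from the J side (top) outward, with log10(reads + 1) on the x axis, 1 point per library and a dotted line at 10 reads. IGHV3-15 (740 reads in REH, 0 in 697) and IGHV2-26 (1 and 8265) lie far apart between the lines, whereas IGHV8-51-1 (40 and 41) nearly coincides.

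Among the 41 V segments, 7 carried reads in both lines, 4 in REH alone and 9 in 697 alone, while 21 stayed under 10 reads in both. The V segments that carried reads were thus 26.8% in REH and 39.0% in 697, beside 31.1% and 28.3% of all genes. Those shares are for each line taken alone. None was computed for genes carrying reads in 1 line only, so the 4 and 9 describe the list. The 7 shared V segments were IGHV4-28, IGHV4-34, IGHV4-39, IGHV5-51, IGHV8-51-1, IGHV4-59 and IGHV7-81. Of these, 4 did not reach a log2 ratio of 2 in size. IGHV8-51-1 was nearly equal, with 40 and 41 reads in REH and 697 (log2 ratio -0.48, -1.15 to 0.18), and IGHV4-28 had 64 and 32 (0.54, -0.08 to 1.22). For both, the counting interval included 0. IGHV5-51 (37 and 73 reads) had a log2 ratio of -1.41 (-2.04 to -0.83), and IGHV7-81 (13 and 21) of -1.12 (-2.26 to -0.07). For IGHV7-81 and IGHV8-51-1 the direction turned between reads aligned to the gene strand and to the other strand. The log2 ratios were 0.64 and -3.14 for IGHV7-81, and 0.29 and -1.58 for IGHV8-51-1.

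The V segments fall into families of related sequence, named by the first number of the symbol. IGHV3, the largest with 20 members, held 66.9% of the V segment reads in REH and 1.10% in 697. IGHV2, with 3 members, held 77.5% in 697 and 0.0671% in REH, and nearly all of its reads in 697 were on IGHV2-26. IGHV4, with 6 members, held 23.4% in REH and 17.9% in 697, and was the only family with over 10% of the V segment reads in each line.

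The spread within families differed between the lines. IGHV3-15 and IGHV3-43 made up all but 26 of the 997 IGHV3 reads in REH, whereas the 118 IGHV3 reads in 697 were spread over 9 segments, led by IGHV3-72 with 43. The 54 IGHV1 reads in REH were also divided, with 21 on IGHV1-18 and 20 on IGHV1-46. IGHV4 was led by IGHV4-39 in REH (223 of 348 reads) and by IGHV4-34 in 697 (1470 of 1908). IGHV6-1, the V segment nearest to the D segments and the only member of its family, had 0 reads in both lines.

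**Figure D2:**
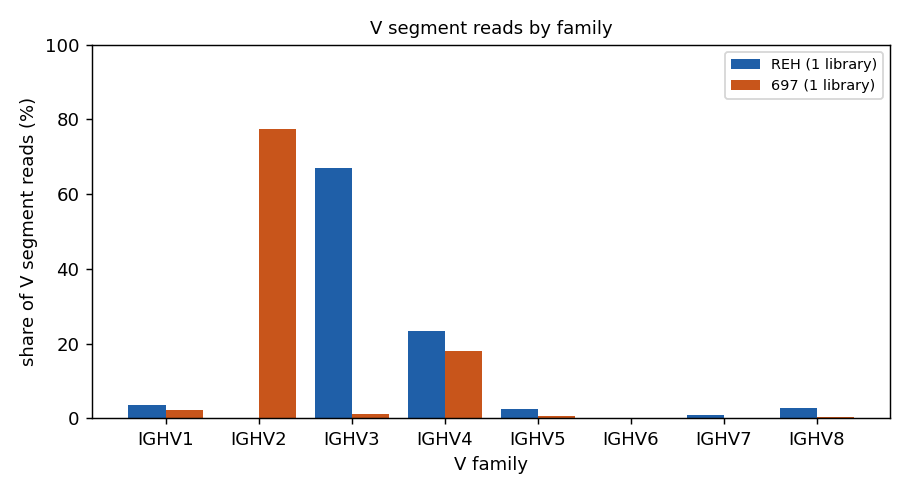
Share of V segment reads (%) that fell on each V family, 1 bar per library. IGHV3 holds 66.9% in REH and 1.10% in 697, IGHV2 holds 0.0671% and 77.5%, and IGHV4 holds 23.4% and 17.9%.

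The V segments were then placed in order along the locus, counted from the J side. IGHV3-15 was the 8th of the 41 V segments, 290 kb from IGHJ6, and IGHV2-26 was the 15th, 438 kb from it. In 697, the 14 V segments nearer to the J segments than IGHV2-26 had 0 reads each, as did the 17 V pseudogenes in that stretch. In REH, the 7 V segments nearer than IGHV3-15 had 1 read in all (on IGHV1-3), and the 9 V pseudogenes there had 0. These stretches were delimited by the leading V segment of each line, so the counts are a description of the same reads.

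Beyond the leading V segment, reads were spread over much of the locus in both lines. In 697, 21 of the 26 farther V segments had at least 1 read, and 15 of them carried at least 10. In REH, 25 of the 33 V segments beyond IGHV3-15 had at least 1 read, and 10 carried at least 10. The part of the locus between IGHV3-15 and IGHV2-26, with 6 V segments, had 23 reads in REH, of which 21 were on IGHV1-18.

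Reads summed over neighbouring V segments differed between the lines, mostly through single segments. The 5 V segments from IGHV3-43 to IGHV3-49, which span 87.2 kb, had 258 reads in REH, of which 231 were on IGHV3-43, and 1 in 697. By contrast, the 11 V segments from IGHV3-53 to IGHV3-74, over 218 kb, had 45 reads in REH and 691 in 697, where IGHV4-59 had 358 and IGHV1-69 had 189. IGHV4-61 (2 and 1 reads), IGHV3-64 (1 and 1) and IGHV3-66 (4 and 1) in this stretch did not follow the sum. IGHV4-61 and IGHV3-66 share much of their sequence with other heavy chain genes or pseudogenes, so their low counts may miss reads. At the far end, IGHV7-81, 1011 kb from IGHJ6, carried reads in both lines. These groups were picked out after their values were seen.

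**Figure D3:**
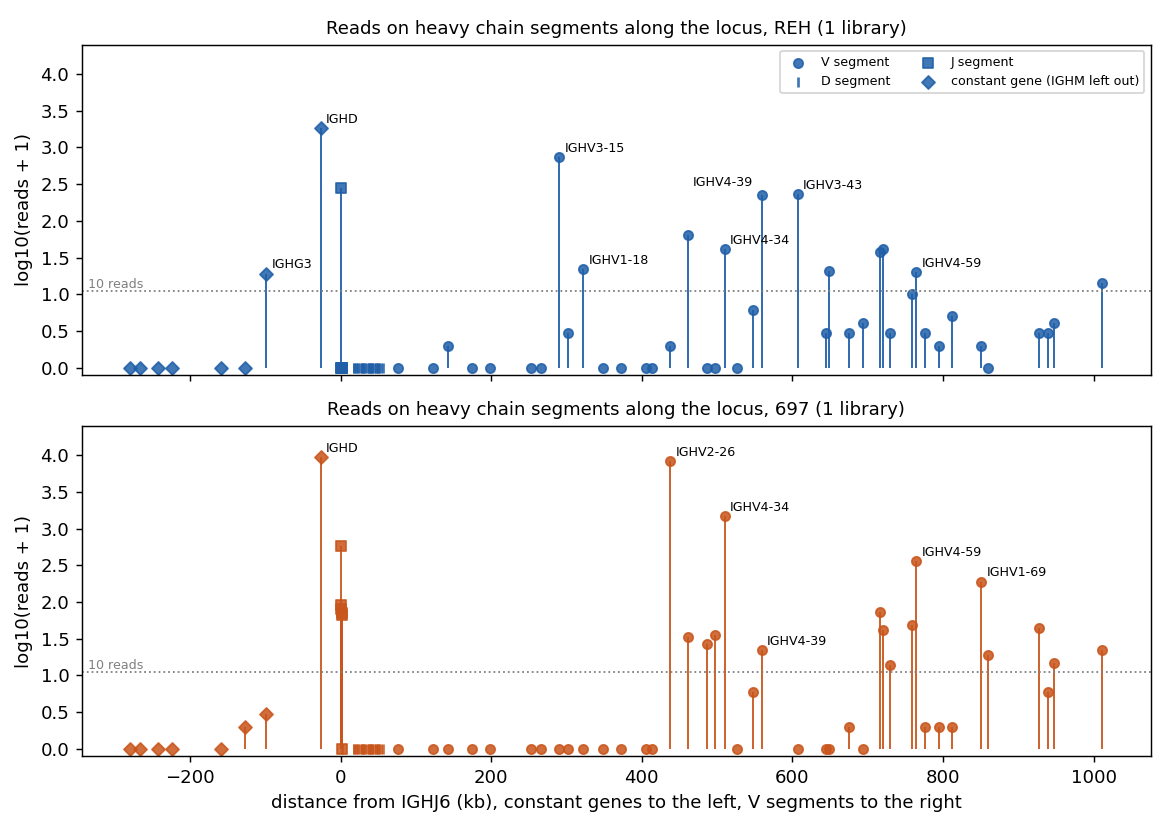
Reads on each of the 82 members along the locus, as log10(reads + 1) against the distance from IGHJ6 in kb, with REH above and 697 below, 1 library each, and a dotted line at 10 reads. V segments between the J segments and IGHV3-15 (REH, 290 kb) or IGHV2-26 (697, 438 kb) are at or near 0, and reads reappear beyond.

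The J segments gave the simplest contrast. In REH, IGHJ6 (105863198 to 105863258, nearest to the constant genes) had 277 reads, and IGHJ1 to IGHJ5 had 0. In 697, 5 of the 6 J segments carried reads, with 583 on IGHJ4, 91 on IGHJ6, 80 on IGHJ5, 70 on IGHJ2 and 65 on IGHJ3. IGHJ4 and IGHJ5 are 91.3% identical in sequence, which limits how surely reads are split between them. IGHJ1, the J segment nearest to the D segments, had 0 reads in both lines.

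IGHJ4 (105864215 to 105864260) made up 65.6% of the J segment reads in 697 (62.4% to 68.6%). Per kb of exon it reached 343 CPM in 697, against 35.9 to 44.2 CPM for the other 4 J segments with reads in that library. Those 4 lay close together in reads too, at 65 to 91. At 46 to 61 bases, these J segments are so short that levels per kb of exon are only a rough measure. A read that also touches a V segment or a constant exon is set aside, so J counts can miss reads of joined transcripts. Compared with the floor of 3 reads in REH, IGHJ4 was at least 264-fold higher in 697, and IGHJ5, IGHJ2 and IGHJ3 were at least 36.3-fold, 31.7-fold and 29.5-fold higher. IGHJ6 had the opposite direction (5.51 CPM in REH against 2.46 in 697), with a log2 ratio of 1.16 (0.82 to 1.52) that stayed below the threshold of 2. Reads aligned to the gene strand gave this direction too (1.83), and those aligned to the other strand, taken alone, gave -1.20.

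No D segment had a read in either library. The 27 D segments are 11 to 37 bases long, and they lose or gain bases at both ends when they are joined, so a read that covers one may not be assigned to it. For each of them, 3 reads would be 0.0597 CPM in REH and 0.0812 CPM in 697. Absence of D segment transcripts cannot be read from this.

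Among the constant genes, IGHD carried nearly all reads. IGHD encodes the delta chain of IgD, is transcribed together with IGHM and is reached by alternative splicing, and its symbol is not to be confused with the D segments. It lies at 105836765 to 105845677. There were 1820 IGHD reads in REH and 9397 in 697, or 36.2 and 254 CPM, and the level was 7.02-fold higher in 697 (log2 ratio -2.81, -2.89 to -2.74). With IGHM left out, IGHD made up 1820 of the 1838 constant gene reads in REH and 9397 of the 9400 in 697.

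The constant genes used after class switching, which encode the gamma, epsilon and alpha chains, had few reads or none. IGHG3, the gamma gene closest to IGHD, carried reads in REH, with 18 against 2 in 697, and was higher in REH with a log2 ratio of 2.44 (0.66 to 5.88). IGHG1 had 0 reads in REH and 1 in 697. IGHG2, IGHG4, IGHE, IGHA1 and IGHA2 had 0 reads in both lines. The gamma and alpha genes resemble one another closely, so reads that fit several of them were not counted.

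**Figure D4:**
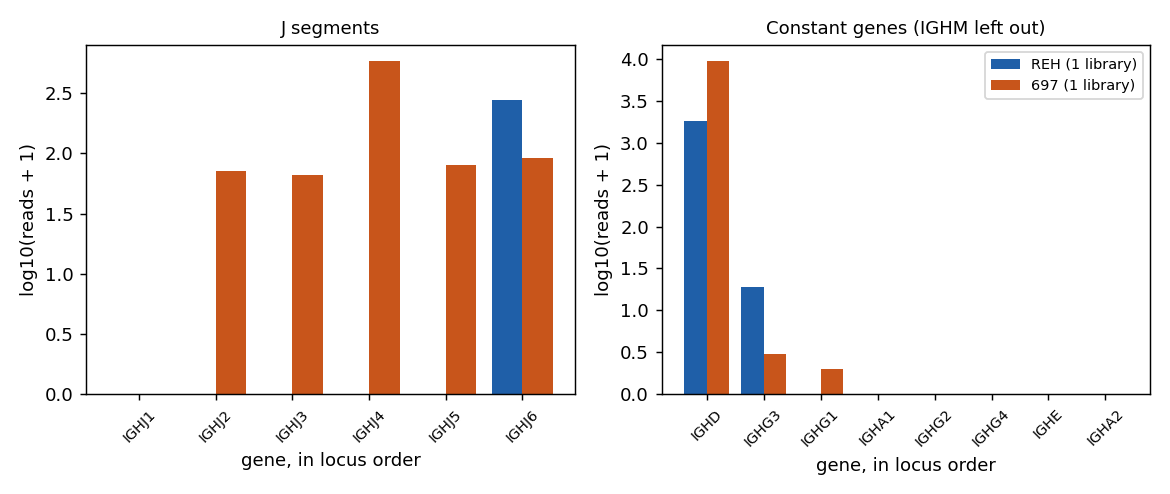
Reads on the 6 J segments (left) and the 8 constant genes (right) in locus order, as log10(reads + 1), 1 bar per library. In REH, IGHJ6 (277 reads) is the J segment with a bar, whereas 697 has bars at IGHJ2 to IGHJ6, and IGHD is the tallest constant gene in both lines (1820 and 9397 reads).

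By segment class, the V, J and constant gene sums were each higher in 697. V segment reads summed to 29.6 and 289 CPM in REH and 697 (log2 ratio -3.29, -3.36 to -3.21), J segment reads to 5.51 and 24.1 CPM (-2.12, -2.33 to -1.93), and constant gene reads to 36.6 and 254 CPM (-2.80, -2.87 to -2.73). Without scaling of the library totals the median log2 ratio over all genes compared moved from 0.05 to 0.36, and the sums of the V and constant genes stayed higher in 697, with log2 ratios of -2.98 and -2.49.

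As a whole the libraries kept no strand information, since the gene strand took 50.1% of the reads in REH and 50.2% in 697. IGHD was close to this (49.0% and 48.6%), but several short members were not. For IGHJ6 in REH, 255 reads aligned to the gene strand and 22 to the other (92.1%, 88.3% to 94.7%), whereas in 697 the split was 53 and 38 (58.2%, 48.0% to 67.8%). IGHJ4 in 697 had 72.7% of its reads on the gene strand (69.0% to 76.2%) and IGHV4-34 in 697 had 74.0% (71.7% to 76.2%). Other members leaned to the other strand, such as IGHV4-39 in REH (43.0% on the gene strand, 36.7% to 49.6%), IGHJ3 in 697 (36.9%, 26.2% to 49.1%) and IGHV7-81 in 697 (23.8%, 10.6% to 45.1%). The leading V segments were less uneven, at 61.6% for IGHV3-15 in REH and 61.3% for IGHV2-26 in 697. Because strand was not kept, these splits describe how reads aligned and cannot show antisense transcription.

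Similarity between V segments limits some of these counts, because reads that fit several places were not assigned to a gene. Over the last 290 bases of the transcripts, IGHV3-15 was 87.9% identical to its nearest relative, IGHV3-72, and IGHV2-26 was 92.4% identical to IGHV2-70D. Of the stretches of 50 bases in IGHV3-15, 22.4% also occurred in another heavy chain gene or pseudogene, and in IGHV2-26 13.3% did. This share was far larger for IGHV4-61 (81.1%), IGHV1-69 (77.7%), IGHV3-33 (71.5%), IGHV4-59 (64.8%) and IGHV3-66 (51.9%). By this measure their reads are the most uncertain among the V segments named. Whether all these sequences were in the reference used for alignment is not known, so a loss of reads cannot be read from the shares. For IGHV8-51-1, IGHV1-58 and IGHV7-81 it was 0. Some nearest relatives are among the 8 V segments not analysed here, as for IGHV1-69 (IGHV1-69D, 99.0% identical), IGHV2-70D (IGHV2-70, 98.6%) and IGHV3-33 (IGHV3-30, 98.3%). Whether reads of those relatives were counted on the listed V segments is not known.

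Other antigen receptor loci were compared in the same way. The lambda light chain locus showed the opposite order, with 5233 reads over its 47 segments in REH and 126 in 697, against 3605 and 20970 for the heavy chain. The kappa segments had 52 and 11 reads over 49 genes. In REH, IGLV3-21 had 2975 of the 3499 lambda V reads, a larger share than the 49.7% of IGHV3-15 among heavy chain V segments. The 170 T-cell receptor segments had 1201 reads in REH and 121 in 697. These are sums of single libraries and were not tested.

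Genes that act with the heavy chain were inspected as lists. For V(D)J recombination, the joining reaction itself, all 13 listed genes had at least 10 reads in both lines and no ratio reached 2 in size (median log2 ratio -0.26, against 0.05 over all genes compared). RAG1, which cuts the DNA with RAG2, reached 1535 CPM in REH and 577 in 697. DNTT, which adds bases at the joints, reached 1142 and 4433 CPM, a log2 ratio of -1.96 (-1.97 to -1.94).

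Among 9 partners and signalling genes of the heavy chain, 2 were higher in REH and 2 in 697, and the median log2 ratio was -0.23. The corresponding shares over all genes compared, for these and the lists that follow, were 12.5% higher in REH and 8.15% higher in 697. VPREB1, a part of the surrogate light chain that pairs with the heavy chain before a light chain is made, was nearly silent in REH with 3 reads, against 10039 in 697 (log2 ratio -11.93, -14.43 to -10.60). Its partner IGLL1 differed less, at 291 and 504 CPM. CD79A and CD79B, which carry the signal of the receptor, reached 655 and 481 CPM in REH and 287 and 120 CPM in 697. CD79B thus lay just at the threshold for a higher level in REH, which BTK also passed.

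Of 13 factors that act at the heavy chain locus, 11 had ratios under 2 in size, with a median of 0.12. SPI1 (PU.1), which binds heavy chain enhancers among other sites, was higher in REH (2810 and 19 reads), and IRF8 was higher in 697 (320 and 953 reads). POU2AF1, the B-cell coactivator of the octamer-binding proteins at V promoters, reached 255 CPM in REH and 99.9 CPM in 697. Of the 10 genes for class switching and antibody secretion, 8 passed the filter, 1 was higher in REH and 2 in 697 (median -0.76). JCHAIN, the joining chain of secreted antibody polymers, had 4 reads in REH and 8797 in 697, and SDC1 had 2677 and 3.

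The labelled cell type was checked against its markers. Of 11 B-cell precursor markers found in the files, 10 had at least 10 reads in REH and 11 in 697, with VPREB1 in REH as the exception. The 5 T-cell markers in the files summed to 0.935 and 0.298 CPM, with 3 of them at 0 in each line. CD3D and CD2 were at 0 in both, CD3E had 45 reads in REH and 0 in 697, and CD8A had 0 and 10. Mature B-cell markers summed to 232 and 360 CPM, of which CD22 made up 216 and 359. Of the 4 mature B-cell markers compared, 3 were higher in REH, namely MS4A1 (670 and 19 reads), FCER2 (110 and 5) and FCRL5 (17 and 0), and the median log2 ratio was 4.27. The sums for plasma cell markers were 363 and 742 CPM (4 of 6 with at least 10 reads in each line). The 6 myeloid markers summed to 261 CPM in REH and 2.25 in 697, and 4 and 2 of them reached 10 reads. MPO made up most of that sum, with 12643 reads in REH and 12 in 697. ITGAM (403 and 0 reads) and CD14 (29 and 8) had the same direction. CSF1R had the opposite one (30 and 61 reads, log2 ratio -1.46, -2.15 to -0.81). ELANE was at 0 in both lines and LYZ had 1 and 2 reads. The part of these differences in the heavy chain values was not tested.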

How the data were processed

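The measurement was RNA sequencing of the lines REH and 697 (1 library each). The authors deposited raw read counts per gene from STAR. The study's methods name hg38, whereas the submitters' processing notes name hg19, and the annotation release is not given in the sources used here. The counts carry no coordinates, and positions, gene types and transcript sequences are those of GENCODE 44 on GRCh38, matched by gene ID (51996 of 57773 IDs matched). Uniquely mapped reads are counted in a gene. A read that touches the exons of several genes is set aside as ambiguous (4.58% of reads in REH, 4.41% in 697). This can happen to a read that links a J segment to a V segment or to a constant exon. Multimapping reads made up 10.8% and 15.4%. The labels describe ribodepleted stranded libraries, the methods poly(A) purification.

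Column 2, reads on either strand, was used. Totals were scaled with TMM in edgeR 4.0.16 (factors 1.11 for REH and 0.899 for 697, R 4.3.3) over the genes that reached 10 reads in either line, and 0.5 reads were added for log2 ratios. Intervals of ratios are exact Clopper-Pearson and those of shares Wilson, at 95%, for counting error only. The floor was 3 reads, set per library. The ratio and interval computation was tested on simulated data with 200 changed genes. No p-value is given, since 1 library per line leaves no spread between replicates. DESeq2 1.42.0 supplied alternative size factors only.

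Identity and shared stretches were computed with Biopython 1.88 under Python 3.11.15. Named were all constant, J and D members with at least 10 reads in a line, the 12 V segments with the most reads in each line and those higher in 697. The members and gene lists were chosen with earlier results of these data known. A planned search of V promoters for an octamer motif was not run, because no promoter sequence of these genes was used here. The value of 1 listed gene is not reported here.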

Additional observations from a re-analysis of the deposited data

Results flagged for a closer look

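Reads also fell on heavy chain sequences that are not members. The 67 V pseudogenes of the locus had 889 reads in REH and 1121 in 697, above the 3 reads taken as detectable. Most of them were on IGHV5-78, a pseudogene near the far end of the locus, with 730 and 1000 reads (14.5 and 27.1 CPM). In REH, IGHV5-78 thus nearly equalled IGHV3-15 with its 740 reads. Its exon is shorter (295 bases against 437), so per kb of exon IGHV5-78 was above IGHV3-15 in REH. The J pseudogenes had 92 reads in 697, of which 61 were on IGHJ3P and 31 on IGHJ2P, and 0 in REH. The V orphons, copies of V segments outside chromosome 14, had 9 reads in REH over 22 genes and 1 in 697. The cause of these reads was not tested.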

How the results depend on the processing

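No paired analysis was possible because REH and 697 have 1 library each, and for the same reason no replicate could be left out. Of 22 members higher in a line, 0 changed sign under the 6 settings run for single ratios, whereas 3 of the 5 with smaller ratios did in a strand column (IGHJ6 -1.20 in column 4, IGHV7-81 0.64 and IGHV8-51-1 0.29 in column 3). With 5 reads added, IGHG3, IGHV1-18, IGHV1-46, IGHV3-53 and IGHV3-74 fell below the threshold, so that 3 members were higher in REH. IGHV3-74 also fell below it in strand column 3 and IGHV1-18 in strand column 4. With a low count filter at 50 reads, 3 members were higher in REH and 9 in 697. V segments carrying reads numbered 27 in REH and 22 in 697 at a minimum of 1 read, an order opposite to the 11 and 16 at 10 reads, and 4 in REH and 5 in 697 at 50 reads, and 3 and 4 at 100 reads. In strand column 4, 7 V segments carried reads in REH and 3 members were higher in REH. Shares over all genes were computed at the main settings only, so the counts of members at other settings describe the list. The leading V share was 52.7% in REH and 76.2% in 697 in column 3, 45.4% and 79.3% in column 4, 31.1% and 70.0% with V pseudogenes in the total, and 78.8% in 697 per kb of exon. The log2 ratio of summed V reads was -2.98 with unscaled totals, -3.37 in column 3 and -3.11 in column 4, and that of the constant genes was -2.49 with unscaled totals. The cause was not tested for these shifts. Depth limits members with under about 20 reads most.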

Other observations

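Beside the members, other genes of the locus also differed between the lines. HOMER2P1, a processed pseudogene between IGHV4-39 and IGHV3-43, had 142 reads in REH and 0 in 697, and the V pseudogenes IGHV3-42 and IGHV7-40 nearby had 57 and 31 reads in REH and 0 in 697. The V pseudogenes IGHV3-32 and IGHV7-27, between IGHV2-26 and IGHV4-34, had the opposite pattern, with 26 and 20 reads in 697 and 0 in REH. FAM30A, a lncRNA gene that lies over D segments, had 0 reads in both lines. TMEM121, a coding gene beyond the constant genes, had 32 reads in REH and 703 in 697. These genes were chosen after their values were seen.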
